A study of Cricetulus griseus with 9 samples.

Results

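The genes described here control the passage of a cell from G1 into S phase. They are the D-type cyclins Ccnd1 (ENSMUSG00000070348), Ccnd2 (ENSMUSG00000000184) and Ccnd3 (ENSMUSG00000034165), and their kinases Cdk4 (ENSMUSG00000006728) and Cdk6 (ENSMUSG00000040274). The others are the kinase inhibitor Cdkn1b (p27, ENSMUSG00000003031), the retinoblastoma gene Rb1 (ENSMUSG00000022105), the transcription factor E2f1 (ENSMUSG00000027490) and the E-type cyclin Ccne1 (ENSMUSG00000002068). They were chosen by name and by mouse Ensembl identifier, without regard to a threshold but with earlier results of these data known. Each of the 9 was found among the 15557 genes of the expression table. All 9 were expressed, averaging 1 FPKM or more, and so entered the tests, which covered 9504 genes in all. FPKM divide the reads of a gene by its model length and by a library total, which may have been scaled.

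RNA came from CHO-K1, an established Chinese hamster ovary cell line, harvested 48 h after lipid transfection. Every culture was grown in medium with charcoal-stripped serum and received 1 of 3 small RNAs, an inhibitor named anti-miR-29a or a precursor, which was pre-miR-29a in some cultures and pre-miR-29b-1 in others. The pre-miRs are synthetic precursors of the named microRNAs. By the submitters' account, the inhibitor blocks both of them. Each group had 3 libraries of poly(A) RNA. The submitters speak of separate experiments, and if each small RNA had its own, experiment and group cannot be told apart. Whether replicates were separate cultures is not labelled, so the p-values reflect library-to-library spread that may be technical. Cells with a control RNA are not analysed here, so "lower" and "higher" below always mean relative to anti-miR-29a or to the other pre-miR. Steps of 1 read in the low values implied library totals of 15100000 to 20780000 reads, which may be scaled totals.

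In growing cells, mitogens raise D-type cyclins, which bind and activate Cdk4 or Cdk6. These kinases phosphorylate the retinoblastoma protein, which otherwise holds E2F factors inactive. Released E2F factors switch on genes for DNA synthesis and for cyclin E, whose kinase completes the phosphorylation of the retinoblastoma protein. Cdkn1b restrains the cyclin E kinase and is itself held by cyclin D complexes. Members of the miR-29 family pair with transcripts through a common seed and lower their level or translation. In other cells, Cdk6 has been reported as a direct target of this family. The measurements below are transcript levels. Protein, phosphorylation and cell cycle position were not measured. In RNA from whole cultures, fewer cells expressing a gene and less RNA per cell cannot be told apart.

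The strongest differences were in Cdk6 and Ccne1. Both transcripts were between 2.72-fold and 3.29-fold lower with the pre-miRs than with anti-miR-29a. Ccnd3 was lower with either pre-miR and Ccnd1 with pre-miR-29a, while E2f1 was modestly higher with either and Cdkn1b higher with pre-miR-29b-1. Rb1 was slightly lower with pre-miR-29b-1. That call was lost under 6 of 20 alternative fits, and the E2f1 call with pre-miR-29a under 7. Some alternative fits also called Ccnd1 with pre-miR-29b-1 and Cdkn1b with pre-miR-29a. Cdk4 and Ccnd2 did not pass the test in any comparison with anti-miR-29a.

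Of the 9 genes, 6 passed the test when pre-miR-29b-1 was set against anti-miR-29a, 4 lower (Ccnd3, Cdk6, Rb1 and Ccne1) and 2 higher (Cdkn1b and E2f1). The test was limma with Benjamini-Hochberg adjustment over all tested genes and a threshold of 0.05. It called 55.2% of all tested genes in this comparison, 29.4% lower and 25.8% higher, so a call by itself does not set a gene apart here. The balance of calls over all genes turned under quantile normalization, from 2451 higher and 2795 lower to 3170 higher and 2474 lower, and for pre-miR-29a from 2613 and 2940 to 3340 and 2494. With pre-miR-29a, 5 of the 9 passed, 4 lower (Ccnd1, Ccnd3, Cdk6 and Ccne1) and 1 higher (E2f1), beside 58.4% of all tested genes called, 30.9% lower and 27.5% higher. The median log2 difference of the 9 genes was -0.18 for pre-miR-29b-1 and -0.12 for pre-miR-29a, beside -0.0057 and -0.016 over all tested genes. The median absolute difference of the 9 genes, 0.26 and 0.24, was near that of all tested genes, 0.24 and 0.26. Libraries of the compared groups were fully separated for 6 of the 9 genes with pre-miR-29b-1, beside 67.6% of all tested genes, and for 5 with pre-miR-29a, beside 62.2%. The anti-miR-29a libraries serve both comparisons, which are therefore not independent of each other.

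**Figure D1:**
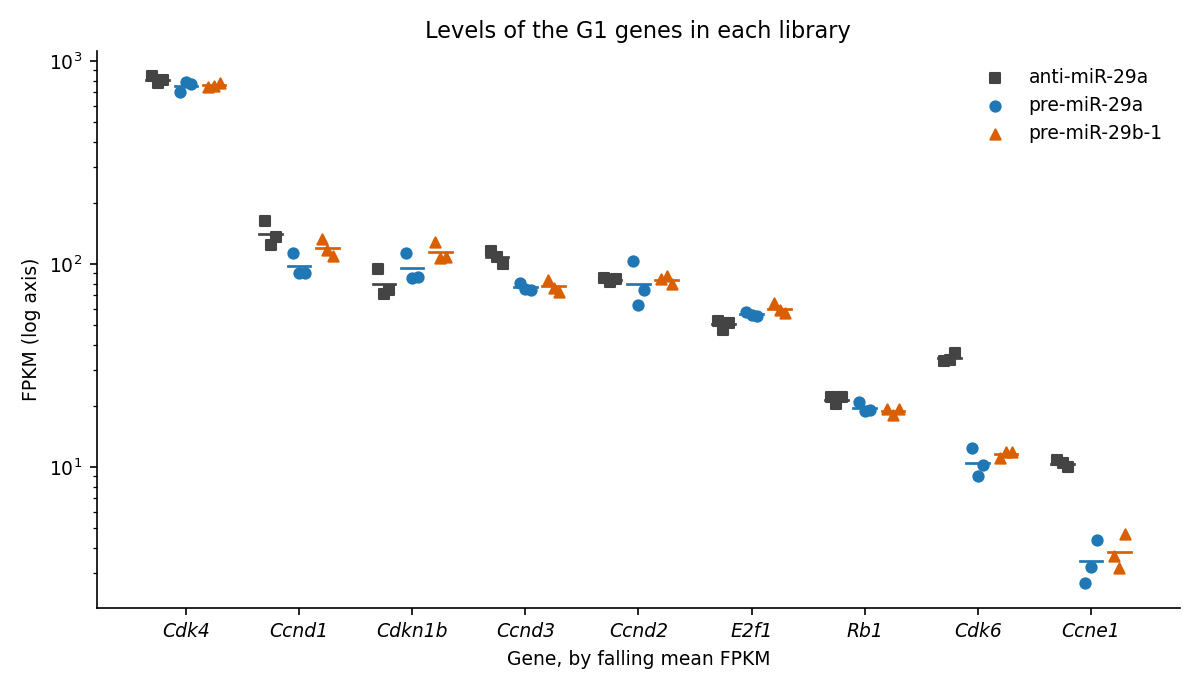
FPKM of the 9 genes on a log axis, ordered by falling mean, with 1 point per library and a short line at the mean of each group of 3 libraries. Cdk6 and Ccne1 show a wide gap between the anti-miR-29a libraries (33.2 to 36.6 and 9.96 to 10.8 FPKM) and all pre-miR libraries (8.97 to 12.3 and 2.69 to 4.65 FPKM).

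The D-type cyclins are the mitogen-responsive regulatory subunits of the pathway. Ccnd1 was the most abundant of them in every group by mean. It stood at 163, 124 and 136 FPKM in the anti-miR-29a libraries, at 113, 89.8 and 89.96 FPKM with pre-miR-29a and at 133, 118 and 109.6 FPKM with pre-miR-29b-1. All pre-miR-29a libraries lay below all anti-miR-29a libraries, whereas the pre-miR-29b-1 range overlapped that of anti-miR-29a. The log2 difference, here and below on the log2(FPKM + 1) scale, was -0.53 (SE 0.12) with pre-miR-29a, at an adjusted limma p of 0.00383. With pre-miR-29b-1 it was -0.23 (SE 0.12), at an adjusted limma p of 0.138 and a 95% interval from 0.71-fold to 1.03-fold. Without anti-miR-29a replicate 1 the latter was -0.12, at an adjusted limma p of 0.431. Without anti-miR-29a replicate 2 it was -0.31, at an adjusted limma p of 0.0666. With all libraries kept, weighting them by their estimated quality brought the pre-miR-29b-1 difference past the threshold, at an adjusted p of 0.0227 (limma). So did a term for the replicate number, at an adjusted p of 0.00759 (limma).

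Ccnd3 was the D cyclin with the most even fall. With anti-miR-29a its levels were 116, 108 and 99.7 FPKM. They were 80.2, 75.7 and 74.2 FPKM in the pre-miR-29a libraries and 83.5, 76.4 and 72.8 FPKM in the pre-miR-29b-1 libraries. No pre-miR library reached the lowest anti-miR-29a library. The mean fell by 28.9% with pre-miR-29a and fell by 28.1% with pre-miR-29b-1. The log2 differences were -0.48 and -0.47 (SE 0.069 each), at adjusted limma p-values of 0.00021 and 0.000296, and they kept their sign and their call under every alternative run.

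Ccnd2 gave 85.4, 81.2 and 84.0 FPKM in the anti-miR-29a libraries and 84.6, 87.2 and 79.5 FPKM in the pre-miR-29b-1 libraries, ranges that overlapped almost fully. The 95% interval of that difference ran from 0.81-fold to 1.25-fold. With pre-miR-29a its libraries were spread widely, at 102.9, 62.7 and 74.5 FPKM, with replicate 1 above and the others below every anti-miR-29a library. The log2 difference for pre-miR-29a was -0.091 (SE 0.14), at an adjusted limma p of 0.599. Without pre-miR-29a replicate 1 it was -0.29, at an adjusted limma p of 0.00918, and without pre-miR-29a replicate 2 it was 0.068, so single libraries decide both its sign and its call.

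Because FPKM are divided by model length, the levels of the D cyclins can be added. With anti-miR-29a their sum was 333 ± 27.9 FPKM (SD, n = 3). It was 254 ± 36.6 FPKM in the pre-miR-29a group and 282 ± 19.8 FPKM in the pre-miR-29b-1 group. The highest pre-miR library, at 302 FPKM, lay below the lowest anti-miR-29a library, at 313 FPKM. Ccnd1 made up 42.3% ± 2.57 of the sum with anti-miR-29a, 38.4% ± 0.86 with pre-miR-29a and 42.7% ± 1.38 with pre-miR-29b-1. The share of Ccnd2 was 25.2% ± 1.54 with anti-miR-29a, 31.1% ± 3.64 with pre-miR-29a and 29.8% ± 1.54 with pre-miR-29b-1. Every pre-miR library had a larger Ccnd2 share, at 27.5% or more, than the highest anti-miR-29a library, at 26.3%. Thus Ccnd2 took a larger part of a smaller D cyclin pool, while its own level did not pass the test. These sums and shares are descriptions without a test, and they take the models of the genes as equally complete.

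**Figure D2:**
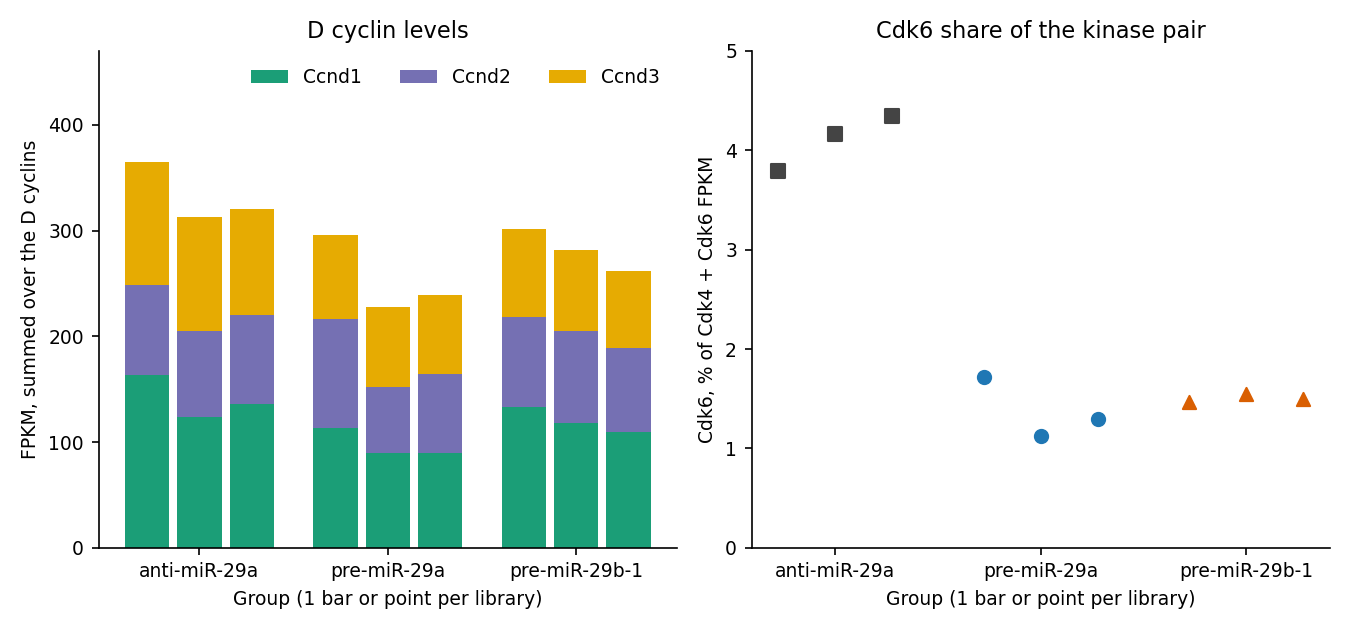
Left, FPKM of Ccnd1, Ccnd2 and Ccnd3 stacked for each library, with the axis from 0. Right, Cdk6 as a percentage of the summed Cdk4 and Cdk6 FPKM, 1 point per library. The stacked sums are 313 to 365 FPKM in the anti-miR-29a libraries and 228 to 302 FPKM in the pre-miR libraries, and the Cdk6 share is 3.79% or more with anti-miR-29a and 1.71% or less with the pre-miRs.

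The kinases partnered by the D cyclins differed sharply from each other. Cdk6 stood at 33.2, 33.8 and 36.6 FPKM with anti-miR-29a. It was at 11.1, 11.8 and 11.9 FPKM with pre-miR-29b-1 and at 12.3, 8.97 and 10.2 FPKM with pre-miR-29a. The groups were far apart, the highest pre-miR library holding 12.3 FPKM and the lowest anti-miR-29a library 33.2 FPKM. By mean FPKM, Cdk6 was 2.98-fold lower with pre-miR-29b-1 and 3.29-fold lower after pre-miR-29a. The log2 differences were -1.49 and -1.64 (SE 0.098 each), at adjusted limma p-values of 1.29e-06 and 5.74e-07. At least 2-fold lower and called were 3.45% of all tested genes with pre-miR-29b-1 and 4.26% in the pre-miR-29a comparison. Counted from the largest fall, Cdk6 ranked 101 of 9504 genes with pre-miR-29b-1 and 82 after pre-miR-29a.

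Cdk4, the other D cyclin kinase, was the most abundant of the 9 genes, above 97.7% of tested genes by mean level. It stood at 843, 779 and 805 FPKM with anti-miR-29a, at 744, 754 and 781 FPKM with pre-miR-29b-1 and at 706, 790.4 and 773 FPKM with pre-miR-29a. The ranges overlapped in both comparisons. The log2 differences were -0.090 and -0.098 (SE 0.059 each), at adjusted limma p-values of 0.224 and 0.181. Their 95% intervals ran from 0.86-fold to 1.03-fold and from 0.85-fold to 1.02-fold.

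By FPKM, Cdk6 was thus a minor part of the pair, and a smaller one with the pre-miRs. A share between different genes also depends on how complete their models are, which was not checked. It held 4.10% ± 0.28 (SD, n = 3) of the summed Cdk4 and Cdk6 FPKM with anti-miR-29a, 1.503% ± 0.038 with pre-miR-29b-1 and 1.38% ± 0.30 after pre-miR-29a. The sum itself was 844 ± 31.7, 772 ± 19.3 and 767 ± 42.8 FPKM in the same order. The order of levels among the genes also changed at this point. With anti-miR-29a, Cdk6 lay above Rb1 without overlap, and with either pre-miR it lay below Rb1 without overlap.

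Ccne1 encodes cyclin E1, which acts after the D cyclins at the entry into S phase. It was the least abundant of the 9 genes in every group. It stood at 10.8, 10.5 and 9.96 FPKM with anti-miR-29a, at 3.64, 3.17 and 4.65 FPKM with pre-miR-29b-1 and at 2.69, 3.22 and 4.36 FPKM with pre-miR-29a. The highest pre-miR library, at 4.65 FPKM, lay well below the lowest anti-miR-29a library. By mean FPKM it was 2.72-fold lower with pre-miR-29b-1 and 3.03-fold lower with pre-miR-29a. The log2 differences were -1.25 and -1.38 (SE 0.15 each), at adjusted limma p-values of 6.66e-05 and 3.00e-05. Its rank from the largest fall was 177 with pre-miR-29b-1 and 164 after pre-miR-29a. The pre-miR values rested on about 53 to 97 implied reads per library and the anti-miR-29a values on about 167 to 195, so the SD from counting error alone was at most 13.8% of a value.

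Cdkn1b encodes p27, an inhibitor of cyclin-dependent kinases. With anti-miR-29a its levels were 94.6, 70.8 and 74.8 FPKM. They were 128, 107 and 108 FPKM in the pre-miR-29b-1 libraries and 114, 85.5 and 85.8 FPKM in the pre-miR-29a libraries. The pre-miR-29b-1 libraries lay above all anti-miR-29a libraries, whereas the pre-miR-29a libraries overlapped them. The log2 difference was 0.52 (SE 0.14) with pre-miR-29b-1, at an adjusted limma p of 0.0088. With pre-miR-29a it was 0.24 (SE 0.14), at an adjusted limma p of 0.148 and a 95% interval from 0.96-fold to 1.46-fold. Without anti-miR-29a replicate 1, the highest of its group, the latter was 0.37, at an adjusted limma p of 0.0383, and without pre-miR-29a replicate 1 it was 0.11, at 0.467. Without anti-miR-29a replicate 2 it was 0.16, at an adjusted limma p of 0.38. A term for the replicate number left the difference at 0.24 and brought it past the threshold, at an adjusted limma p of 0.00274. Each pre-miR-29a library lay above the anti-miR-29a library of its number, but the labels do not say what a number marks. The ratio of summed D cyclin FPKM to Cdkn1b FPKM was 4.19 ± 0.30 (SD, n = 3) for anti-miR-29a. It was 2.47 ± 0.15 for pre-miR-29b-1 and 2.68 ± 0.092 for pre-miR-29a, with no overlap between anti-miR-29a and either pre-miR.

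Rb1 encodes the pocket protein that the D cyclin kinases phosphorylate, and its differences were small. It stood at 21.99, 20.4 and 22.0 FPKM with anti-miR-29a, at 19.3, 18.0 and 19.3 FPKM with pre-miR-29b-1 and at 20.9, 18.8 and 19.1 FPKM with pre-miR-29a. The pre-miR-29b-1 libraries lay just below the anti-miR-29a libraries and the pre-miR-29a libraries overlapped them. The log2 difference was -0.18 (SE 0.063) with pre-miR-29b-1, at an adjusted limma p of 0.0351, and -0.12 with pre-miR-29a, at an adjusted limma p of 0.114. The first of these calls ended under quantile normalization, at an adjusted p of 0.086 (limma). It also ended without any 1 of the pre-miR-29b-1 libraries or without anti-miR-29a replicate 1 or 3, at adjusted p-values of 0.0571 to 0.129 (limma). With pre-miR-29a the difference shrank to -0.011 under quantile normalization, and it passed with array weights and without pre-miR-29a replicate 1, at -0.17 each and adjusted limma p-values of 0.00765 and 0.0331.

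E2f1 encodes a transcription factor that the retinoblastoma protein restrains. With anti-miR-29a its levels were 52.6, 47.1 and 51.3 FPKM. They were 64.2, 59.4 and 57.2 FPKM in the pre-miR-29b-1 libraries and 58.1, 55.9 and 55.3 FPKM in the pre-miR-29a libraries. Every pre-miR library was above every anti-miR-29a library. The log2 difference was 0.26 (SE 0.06) with pre-miR-29b-1, at an adjusted limma p of 0.00472, and 0.16 (SE 0.06) with pre-miR-29a, at an adjusted limma p of 0.0381. The call for pre-miR-29a was lost under 7 of 20 alternatives, at adjusted p-values of 0.053 to 0.138 (limma). Of these, 6 left out 1 library each (any of the pre-miR-29a libraries, anti-miR-29a replicate 2 or 3, or pre-miR-29b-1 replicate 2). The E2f1 transcript thus moved up while Ccne1, a gene that E2F factors are known to activate, moved down. E2F activity was not measured, and whether these changes are linked was not tested.

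**Figure D3:**
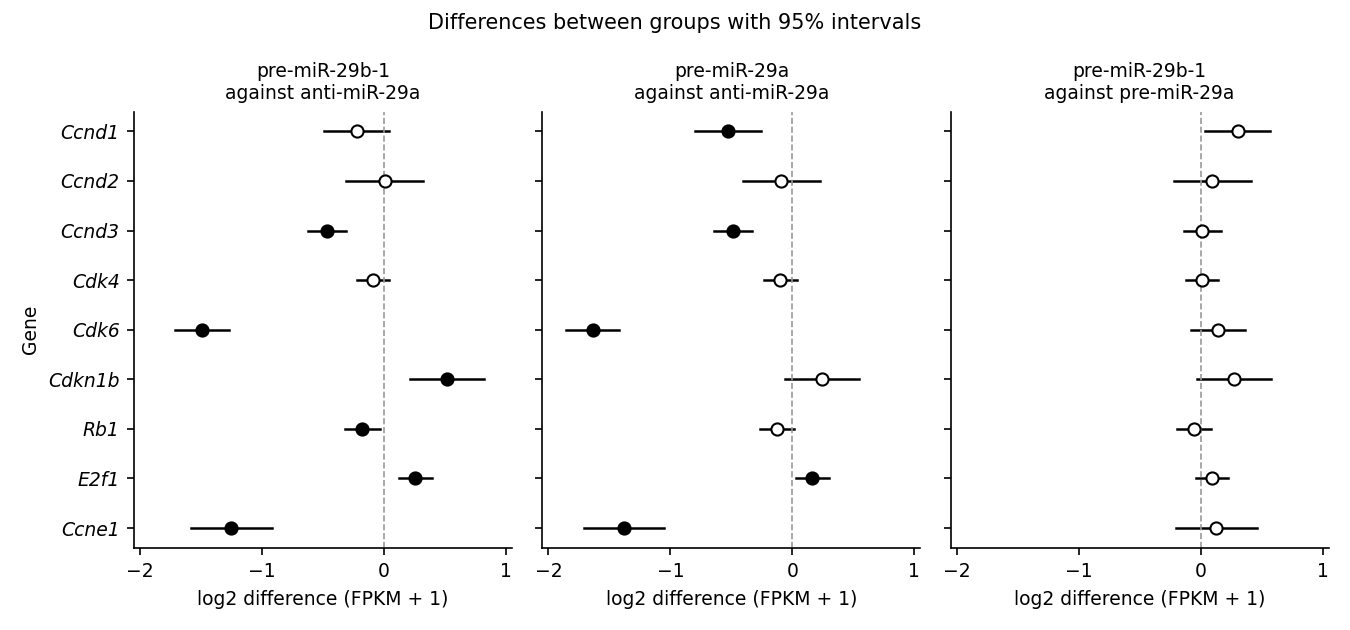
Log2 differences of the 9 genes on the log2(FPKM + 1) scale with 95% intervals from limma, in 3 comparisons of 3 against 3 libraries. Filled points passed the adjusted threshold and open points did not, and the 2 left panels share the anti-miR-29a libraries. Cdk6 (-1.49 and -1.64) and Ccne1 (-1.25 and -1.38) stand apart on the left of the first panels, and no point is filled in the last.

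The pre-miRs were also compared with each other, which asks whether the family members differ in effect. None of the 9 genes passed the test (limma), beside 0.0105% of all tested genes called, and at an unadjusted p under 0.05 there was 1, Ccnd1, beside 1570 or 16.5% of all tested genes. Ccnd1 was higher with pre-miR-29b-1 by a log2 difference of 0.30 (SE 0.12), at an adjusted limma p of 0.271 and a 95% interval from 1.02-fold to 1.49-fold. Cdkn1b was next, at 0.27 (SE 0.14), at an adjusted limma p of 0.337 and an interval from 0.98-fold to 1.49-fold. In the fit used throughout, Cdkn1b passed against anti-miR-29a only with pre-miR-29b-1 and Ccnd1 only with pre-miR-29a. Yet in that fit neither response is shown to differ between the pre-miRs. With array weights both differences passed, at adjusted limma p-values of 0.00615 for Ccnd1 and 0.0139 for Cdkn1b. Without such weights, the difference for Cdk6 was 0.14, with an interval from 0.95-fold to 1.28-fold. For Ccne1 it was 0.13, with an interval from 0.87-fold to 1.37-fold. For Ccnd3 it was 0.015, from 0.91-fold to 1.13-fold, and for Cdk4 0.008, from 0.92-fold to 1.10-fold. For Rb1 it was -0.053, from 0.87-fold to 1.06-fold, for E2f1 0.092, from 0.97-fold to 1.17-fold, and for Ccnd2 0.095, from 0.86-fold to 1.33-fold. In this unweighted fit of all 9 libraries, the interval thus stayed within 1.5-fold for each of the 9 genes. Intervals of the other fits are not given. Without pre-miR-29a replicate 1, Ccnd1 and Ccnd2 passed, at 0.41 and 0.29 at adjusted limma p-values of 0.0472 and 0.0405. Cdkn1b was then also at 0.41, at an adjusted limma p of 0.0553. Leaving out that library brought the calls over all genes to 1378.

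**Figure D4:**
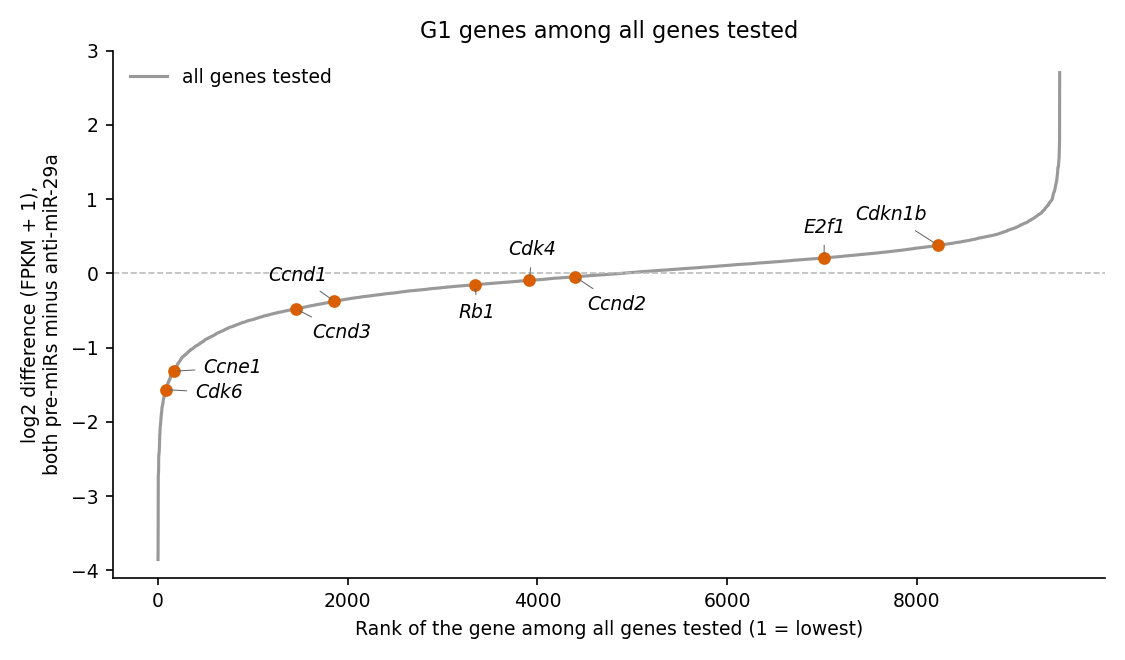
Log2 difference of both pre-miRs together (6 libraries) from anti-miR-29a (3 libraries) for all 9504 tested genes, ordered from lowest to highest (grey line), with the 9 genes as points. Cdk6 and Ccne1 lie at the steep left end, at ranks 84 and 168, while the other 7 genes lie along the flat part, from Ccnd3 at rank 1453 to Cdkn1b at rank 8223.

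On the CriGri_1.0 assembly, each of the 9 genes had a single model. The models follow mouse protein alignments, so they hold coding exons and no untranslated regions, and microRNA sites outside the coding sequence lie outside them. Among the 9, the Cdk6 model covers the longest stretch of genome, on the minus strand at JH000059:1821672-2007055, with 7 coding exons spread over 185384 bases. Cdk4 has the same number of coding exons in 2632 bases, on the minus strand at JH000814:674651-677282. Exons 2 to 6 of the pair have equal lengths, 136, 168, 110, 51 and 136 bases in both genes. The D cyclins have 5 coding exons each, and exons 2 and 3 are 216 and 160 bases in all 3. Ccnd1 lies on the minus strand at JH001243:308625-315096, Ccnd2 on the plus strand at JH000031:1605163-1626712 and Ccnd3 on the minus strand at JH000627:65914-71049. Ccne1, with 8 coding exons, lies on the minus strand at JH001240:277755-282062. The model of Cdkn1b (JH000261:1540877-1541978, plus strand) has 2 coding exons, that of Rb1 (JH000629:711752-838364, minus strand) 26 and that of E2f1 (JH000254:231009-234941, minus strand) 6. All exon counts here are those of the models, and whether a model holds every coding exon of its gene was not checked. Cdk6 alone shared exon bases with another model, 57 bases of its exon 4 or 6.71% of its coding length. The other model, ENSMUSG00000091644, lies on the opposite strand and is listed at 0 FPKM in all 9 libraries.

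Marker genes of the cell cycle phases, taken from the mouse marker pairs of the scran package, were counted beside the 9 genes. Of 11 markers of G1 alone, all tested, 3 were higher and 6 lower (limma) with pre-miR-29b-1, with a median log2 difference of -0.31, and 3 and 6 with pre-miR-29a, with a median of -0.30. Of 29 tested markers of S phase, which include E2f1, 4 rose and 13 fell with pre-miR-29b-1 (median -0.16), and 7 and 9 did with pre-miR-29a (median -0.063). Of 23 tested markers of G2 and mitosis, 9 were higher and 7 lower with each pre-miR, with medians of 0.14 and 0.17. Of all tested genes, those called came to 25.8% up and 29.4% down in the pre-miR-29b-1 comparison, and 27.5% up and 30.9% down in the other, beside the medians given above. The lists are small, and whether cell cycle position bears on the levels of the 9 genes was not tested.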

How the data were processed

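The authors deposited 1 table of FPKM for 15557 genes in 9 libraries. Per the submitters' processing notes, FastQC, TopHat2 2.0.13 and Cuffnorm were used. For Cuffnorm, version, library scaling and strand setting were not given in the sources used here. Per the file headers, gene models are mouse Ensembl release 66 proteins aligned to CriGri_1.0.

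The files hold identifiers only. Symbols of the 9 genes came with their selection, and all 9 symbols exist in the hamster RefSeq table of CriGri-PICRH-1.0. Of the 15557 identifiers, 0 matched that table, so a list of other G1 genes fixed by symbol was not tested. The genes and lists were chosen with earlier results of these data known.

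Tests used limma 3.58.1 (R 4.3.3) on log2(FPKM + 1), with 1 term per group, all 9 libraries, moderated variances with a trend, two-sided p-values and Benjamini-Hochberg adjustment over the 9504 genes averaging 1 FPKM or more. The pseudocount understates changes of low genes. All 9 genes were named by rule. Phase markers came from scran 1.30.0, limited to genes that led a pair in 1 phase only. Implied reads are FPKM times coding length times the depth at which low values of genes of at least 3000 bases became whole (99.1% to 100% within 0.2 reads). The fit was also run on simulated data with few changed genes and independent noise. That setting is unlike these data, and nothing is drawn from it here.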

Additional observations from a re-analysis of the deposited data

How the results depend on the processing

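Alternatives changed the pseudocount (0.1 or 5), the filter (none or 5 FPKM), the scaling, the variance trend, the weights of libraries, the groups fitted together and a term for the replicate number, and each library was omitted once. Restricting the fit to genes with 1 model and no shared bases, the 9 genes kept, was chosen after seeing the data. Cdk6, Ccne1 and Ccnd3 kept their sign and call against anti-miR-29a under all 20 alternatives. Against anti-miR-29a, the number of the 9 genes called stayed at 5 to 7 for pre-miR-29b-1 and 4 to 6 for pre-miR-29a, while calls over all genes ranged from 3988 to 6507 and from 4220 to 6790, the lowest in the fit restricted to fewer genes and the highest with array weights. Both scalings moved the median of all genes by less than 0.1 (log2).

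Between the pre-miRs, 0 of the 9 genes passed, but 3 (Ccnd1, Cdk6 and Cdkn1b) with array weights, 2 (Ccnd1 and Cdkn1b, adjusted limma p 0.0379 and 0.0378) with the replicate block and 0 to 2 without 1 library. Over all genes 1 passed. This became 3627 under array weights, 184 with the replicate block, 0 in a fit of only the groups compared and 1 to 1378 without 1 library, where omitting pre-miR-29a replicate 1 gave the most. The cause was not tested. With the replicate block, Ccnd1 with pre-miR-29b-1 (adjusted p 0.00759, limma) and Cdkn1b with pre-miR-29a (0.00274) also passed against anti-miR-29a. Same-numbered libraries deviated together with r of -0.018 to 0.29 across genes, over 0.1 in 6 of 9 pairs, and all 9 libraries correlated best with a library of their own number. The labels do not say what a number marks.

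Signs turned only for differences that had not passed. With quantile normalization, Cdk4 in the pre-miR-29b-1 group differed from anti-miR-29a by 0.0202 and Ccnd2 with both pre-miRs 0.035. Between the pre-miRs with array weights, Cdk4 was -0.022 and Ccne1 -0.17. Leaving out 1 library, Ccnd2 ranged from -0.026 to 0.04 with pre-miR-29b-1, from -0.29 to 0.068 with pre-miR-29a, from -0.14 to 0.035 with both and from -0.064 to 0.29 between the pre-miRs. There Ccnd3 ranged from -0.039 to 0.059 and Cdk4 from -0.041 to 0.0404.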

Other observations

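In 4 of the 9 genes, Ccnd1, Ccnd3, Cdkn1b and E2f1, replicate 1 was the highest library of its group in all 3 groups. The same held for 1163 of the 9504 tested genes, or 12.2%, for replicate 1, against 300 for replicate 2 and 304 for replicate 3, which had none of the 9 genes. For Ccnd1 and Cdkn1b the gap was wide, with 163 and 94.6 FPKM in anti-miR-29a replicate 1 against 124 and 70.8 FPKM in replicate 2. What the replicate numbers share was not tested.

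The genes whose log2 levels followed Cdk6 most closely over the 9 libraries were ENSMUSG00000028412 and ENSMUSG00000041949, each with a Pearson r of 0.998. ENSMUSG00000028412 averaged 24.1 FPKM with pre-miR-29b-1, 22.3 FPKM with pre-miR-29a and 46.1 FPKM with anti-miR-29a. ENSMUSG00000041949 averaged 12.2, 11.5 and 24.3 FPKM in the same order. An r over 0.9 is not rare here, since 1756 genes had one with Cdk6, and the libraries fall into pre-miR and anti-miR-29a sets. For Cdkn1b, the gene of the 9 with the largest rise, the closest were ENSMUSG00000057969 and ENSMUSG00000004562, each with an r of 0.97, and 146 genes had an r over 0.9. The files do not pair these identifiers with names.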
